A study of Mus musculus with 4 samples.

Results

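The core circadian clock of the lung was examined through 10 genes, 3 of the activator arm (Arntl, Clock and Npas2) and 7 of the repressor arm and its outputs (Per1, Per2, Per3, Nr1d1, Nr1d2, Dbp and Ciart). They were chosen by symbol for their known roles, as were the gene lists set beside them, with earlier results of these data known. All 10 were found among the 17780 genes of the expression table. Lung poly(A) RNA was sequenced from C57BL/6 mice (C57BL/6J in the study's methods) given vehicle, amiodarone (an antiarrhythmic drug known for lung toxicity), dabigatran (an oral inhibitor of thrombin, given as its prodrug) or amiodarone + dabigatran by mouth. The labels give 28 days of treatment, and the study's methods date the tissue slightly earlier. The mice were male and wild type, were bought as young adults and lived under alternating light and dark. Each group is represented by 1 library, so no difference below has a replicate check and no p-value is given. Neither the hour at which the lungs were taken nor the number of mice behind a library is given in the sources used here.

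The clock is a feedback loop of transcription. ARNTL (BMAL1) pairs with CLOCK or its relative NPAS2 and binds E-box sequences in the Per, Nr1d, Dbp and Ciart genes. PER and CIART proteins then hold back the activators, DBP passes the rhythm on to D-box genes, and NR1D1 and NR1D2 (REV-ERB alpha and beta) silence Arntl through ROR elements. In peripheral organs such as the lung the arms peak at different hours and in a fixed order, and Per1 is also induced directly by glucocorticoids. The treatment of a group and the hour at which its lung was taken cannot be told apart with 1 library per group. In whole lung, fewer cells of a type and less RNA per cell cannot be told apart either.

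The promoter windows of the members were searched for the motifs that these factors are known to bind, and the 5 windows that hold one are printed with the motif in capitals. The windows come from RefSeq on GRCm38.p6, run from 250 bases before to 50 bases after a transcript start, and were found for 9 of the 10 members, in 13 windows. Both strands were searched for the E-box CACGTG, the E-prime-box CACGTT, the D-box TTANGTAA, the cyclic AMP element TGACGTCA, the glucocorticoid half-site TGTTCT and the ROR element.
Per1, chr11:69098699-69098998, plus strand: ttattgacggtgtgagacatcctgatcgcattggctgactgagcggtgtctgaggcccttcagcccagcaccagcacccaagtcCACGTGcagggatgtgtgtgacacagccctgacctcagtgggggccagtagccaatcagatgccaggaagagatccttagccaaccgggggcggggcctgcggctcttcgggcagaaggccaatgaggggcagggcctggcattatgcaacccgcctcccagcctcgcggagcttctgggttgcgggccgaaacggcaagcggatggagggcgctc
Ciart, chr3:95882179-95882478, minus strand: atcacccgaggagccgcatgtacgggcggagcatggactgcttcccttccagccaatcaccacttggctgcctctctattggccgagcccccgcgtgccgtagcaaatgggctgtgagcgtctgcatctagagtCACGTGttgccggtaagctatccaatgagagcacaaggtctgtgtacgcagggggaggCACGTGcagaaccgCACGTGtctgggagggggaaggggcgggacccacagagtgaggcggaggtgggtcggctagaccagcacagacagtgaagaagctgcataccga
Nr1d1, chr11:98775328-98775627, minus strand: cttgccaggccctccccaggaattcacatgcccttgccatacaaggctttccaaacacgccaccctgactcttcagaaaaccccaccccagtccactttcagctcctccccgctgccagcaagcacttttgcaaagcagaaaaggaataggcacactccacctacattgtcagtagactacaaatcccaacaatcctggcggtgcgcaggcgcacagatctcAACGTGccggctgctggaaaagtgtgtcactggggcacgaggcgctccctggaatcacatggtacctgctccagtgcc
Per3, chr4:151044616-151044915, minus strand: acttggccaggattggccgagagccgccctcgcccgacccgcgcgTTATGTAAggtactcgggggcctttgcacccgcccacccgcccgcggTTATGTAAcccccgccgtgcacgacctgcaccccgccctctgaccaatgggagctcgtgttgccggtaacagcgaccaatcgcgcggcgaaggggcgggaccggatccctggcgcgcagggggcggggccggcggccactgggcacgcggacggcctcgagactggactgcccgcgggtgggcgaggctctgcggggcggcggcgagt
Arntl, chr7:113207261-113207560, plus strand: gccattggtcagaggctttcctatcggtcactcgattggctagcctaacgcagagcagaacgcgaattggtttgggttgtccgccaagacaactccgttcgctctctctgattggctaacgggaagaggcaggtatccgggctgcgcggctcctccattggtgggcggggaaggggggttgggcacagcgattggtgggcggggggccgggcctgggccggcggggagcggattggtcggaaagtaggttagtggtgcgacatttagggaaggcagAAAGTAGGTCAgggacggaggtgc

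The Per1 window holds 1 E-box, whose first base lies at position -166, counted from the start. Ciart holds 3 E-boxes, at positions -116, -58 and -44, whereas 7.15% of 32851 promoter windows of the same length hold at least 1. The Nr1d1 window has 1 E-prime-box, read on the other strand as AACGTG, at position -28, a motif found in 4.68% of windows. Per3 carries 2 D-boxes, the element bound by DBP and its relatives TEF and HLF, at positions -205 and -158, and 2.32% of windows hold this motif. Arntl has a ROR element beginning at position 26, after the start, which 0.384% of windows hold. None of these motifs was found in the windows of Dbp, Nr1d2, Clock or Npas2. The cyclic AMP element (1.79% of windows) and the glucocorticoid half-site (19.0% of windows) were not found in a window of any member. These letter matches describe 300 bases around a start and not binding, and known sites in introns and distal enhancers lie outside them.

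Levels are given as FPKM, reads corrected for transcript length and library depth, which allows genes to be compared within a library. Estimated reads summed to between 17498486 and 18903401 per library. Ratios between libraries carry a 95% interval from the reads of both (exact Clopper-Pearson), which covers counting error only and compares the libraries, not the treatments. The tissue label was checked on 10 markers of lung epithelium and endothelium, and all 10 were at 1 FPKM or more in every library. Sftpc, the surfactant protein of alveolar type 2 cells, ranged from 19587 to 20385 FPKM.

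Among the activators, Arntl was at 3.60 FPKM in the vehicle library, 2.43 in that of amiodarone, 4.28 in that of dabigatran and 3.90 in that of the combination (amiodarone + dabigatran). The amiodarone library was the low one, beyond counting error, and the other 3 did not differ from their neighbours in the order beyond it. Clock, the histone acetyltransferase partner of ARNTL, stood at 6.73, 7.02, 8.03 and 6.80 FPKM in the same order of libraries. Only the dabigatran library was set apart from its neighbour for Clock. Npas2, which can replace CLOCK, was the lowest member at 1.26, 1.22, 1.52 and 1.74 FPKM, from 87 to 130 reads, and no neighbouring libraries differed beyond counting error.

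Among the period genes, whose proteins join the cryptochromes in the repressor complex, Per1 varied most. It reached 59.7 FPKM with amiodarone and 46.6 in the combination, against 23.2 in the vehicle library and 22.6 in the dabigatran library. Both libraries given amiodarone lay above both others, and vehicle and dabigatran did not differ beyond counting error. Per2 followed the same split, at 8.34 FPKM in vehicle, 12.7 in amiodarone, 5.97 in dabigatran and 9.93 in the combination, with every step in its order beyond counting error. Per3 did not: in that order it was at 13.9, 11.2, 10.7 and 9.56 FPKM, highest with vehicle and lowest with amiodarone + dabigatran.

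Nr1d1 and Dbp were the most abundant members. Nr1d1, a heme-binding nuclear receptor that represses Arntl, was at 175 FPKM with vehicle and 177 with dabigatran, but at 135 with amiodarone and 116 in the combination. Dbp, a transcription factor that drives D-box genes, was at 140 and 116 FPKM in the former 2 libraries and at 89.2 and 74.2 FPKM in the latter. For both genes the libraries given amiodarone lay below the other two, without overlap. Nr1d2, the close relative of Nr1d1, was nearly level, at 28.8 FPKM with vehicle, 28.7 with amiodarone, 26.1 for dabigatran and 24.4 for the combination. Ciart, a repressor of CLOCK and ARNTL activity, sided with Per1 and Per2 at 9.53, 14.2, 7.06 and 11.3 FPKM in the same order.

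**Figure D1:**
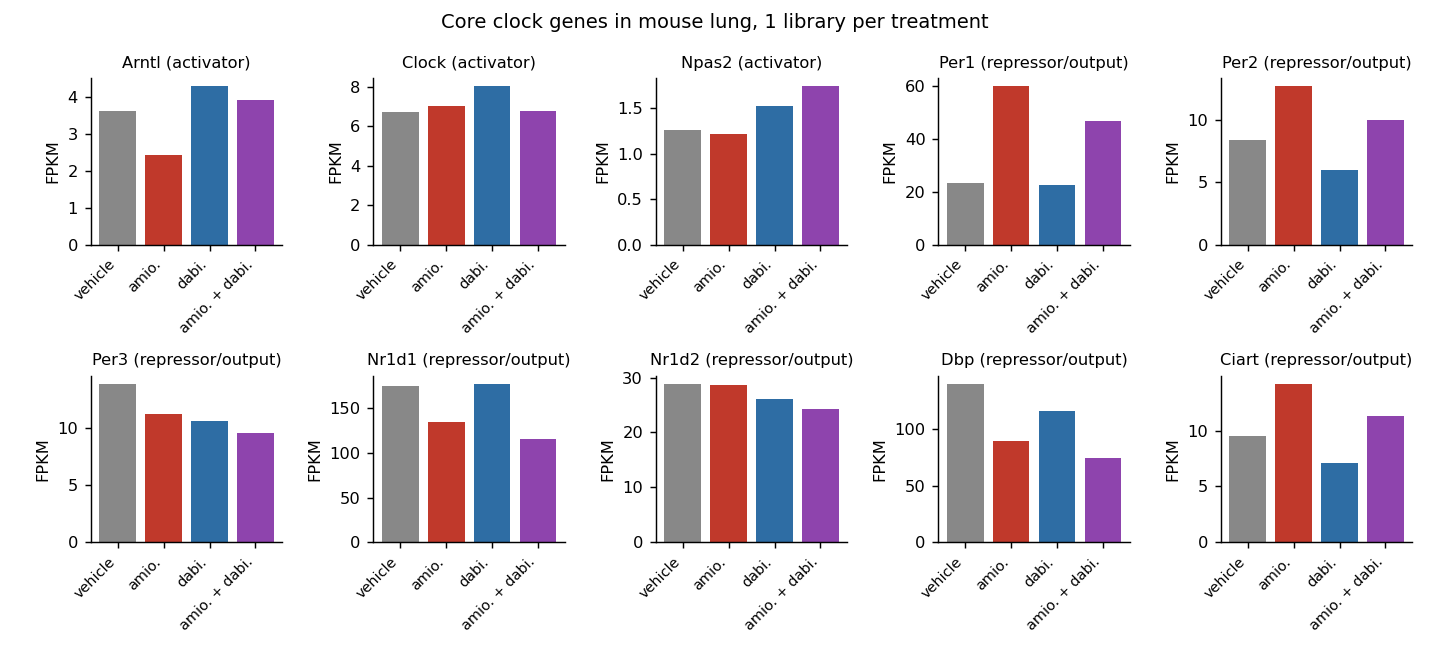
Expression of the 10 clock genes in mouse lung, in FPKM on a separate axis for each gene, with 1 library per treatment. Per1 reached 59.7 FPKM with amiodarone against 23.2 with vehicle, whereas Nr1d1 and Dbp were lower in both libraries given amiodarone.

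The range over the 4 libraries on the log2(FPKM + 1) scale was set beside that of the 9684 genes whose mean was 5 FPKM or more. The range of Per1, 1.37, was at percentile 98.5 of these genes. Per2, Ciart and Dbp came next at percentiles 96.4, 95.9 and 95.8, followed by Arntl at 91.0, Nr1d1 at 90.6 and Per3 at 86.2. Clock at 48.6 and Nr1d2 at 51.6 were ordinary in this respect, and Npas2 was at 66.5. Arntl and Npas2 have means below 5 FPKM, where counting error widens a range and the added 1 shrinks it. Their plain ratios of highest to lowest FPKM were 1.76 and 1.43, beside 1.45 for Per3.

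Amiodarone was compared in a pair without dabigatran (amiodarone against vehicle) and a pair with it (amiodarone + dabigatran against dabigatran). These pairs share no library, and they compare libraries, not treatments. Per1 was 2.58-fold the vehicle level with amiodarone (2.45 to 2.72) and 2.07-fold in the pair with dabigatran (1.96 to 2.18). Per2 was 1.52-fold (1.39 to 1.66) and 1.66-fold (1.501 to 1.84), and Ciart 1.49-fold (1.27 to 1.75) and 1.60-fold (1.33 to 1.93). In the opposite direction, Dbp had ratios of 0.639 (0.608 to 0.672) and 0.642 (0.608 to 0.678), and Nr1d1 of 0.768 (0.743 to 0.793) and 0.654 (0.633 to 0.676). Per3 was lower by less, at 0.809 (0.754 to 0.868) and 0.897 (0.829 to 0.970). These 6 of the 10 members differed beyond counting error in the same direction in both pairs, as did 23.9% of 13245 genes. Within single pairs 19.6% of genes were higher and 30.1% lower beyond it without dabigatran, and 19.5% and 23.5% with dabigatran. Such shares grow with the reads of a gene, and most members have many.

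The other 4 members did not repeat. Arntl was lower with amiodarone alone, at a ratio of 0.675 (0.534 to 0.851), but its ratio in the pair with dabigatran, 0.911, had an interval from 0.750 to 1.11. Clock was 1.04-fold (0.961 to 1.13) without dabigatran and 0.847-fold (0.783 to 0.916) with it. Nr1d2 was at 0.997 (0.942 to 1.06) and 0.932 (0.877 to 0.990). The intervals of Npas2 held 1 in both pairs, from 0.714 to 1.31 and from 0.880 to 1.49.

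Against the background of all genes, a member was counted as called at 1.5-fold or more on the log2(FPKM + 1) scale, where the tested genes had 1 FPKM or more in at least 1 of the pair of libraries. Amiodarone against vehicle gave 4.34% of 13402 genes called higher and 3.93% lower. Of the 10 members, Per1 was called higher and Dbp lower. In the pair with dabigatran, with backgrounds of 3.25% higher and 2.04% lower, Per1, Per2 and Ciart were called higher and Nr1d1 and Dbp lower. In the pair without dabigatran Per2 and Ciart had log2 differences of 0.55 and 0.53, just under the threshold of 0.585. Both libraries given amiodarone lay above both others in 3 members and below them in 2, where 21.9% of 13536 genes lay above and 31.4% below, so this count is near the background. In both pairs 8 of the 10 members differed in the same direction, against 64.8% of 13157 genes.

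The split did not follow the arms. The median log2 difference of the repressor arm was -0.00 in the pair without dabigatran and -0.10 in the pair with it, beside -0.05 and -0.01 over all genes, with 3 members higher and 4 lower in each pair. The activator arm had medians of -0.03 and -0.11. Rescaling the libraries by their median ratio turned the first of each into values just above 0 (0.04 for the repressor arm). Within the repressor arm, the level of Per1 per unit of Nr1d1 was 0.132 with vehicle and 0.127 with dabigatran, but 0.444 with amiodarone and 0.402 with amiodarone + dabigatran. Per2 was below Per3 in the libraries without amiodarone (ratios of 0.601 and 0.560) and slightly above it in those with amiodarone (1.13 and 1.04). These ratios within a library do not depend on its depth, and were chosen after the values were seen.

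**Figure D2:**
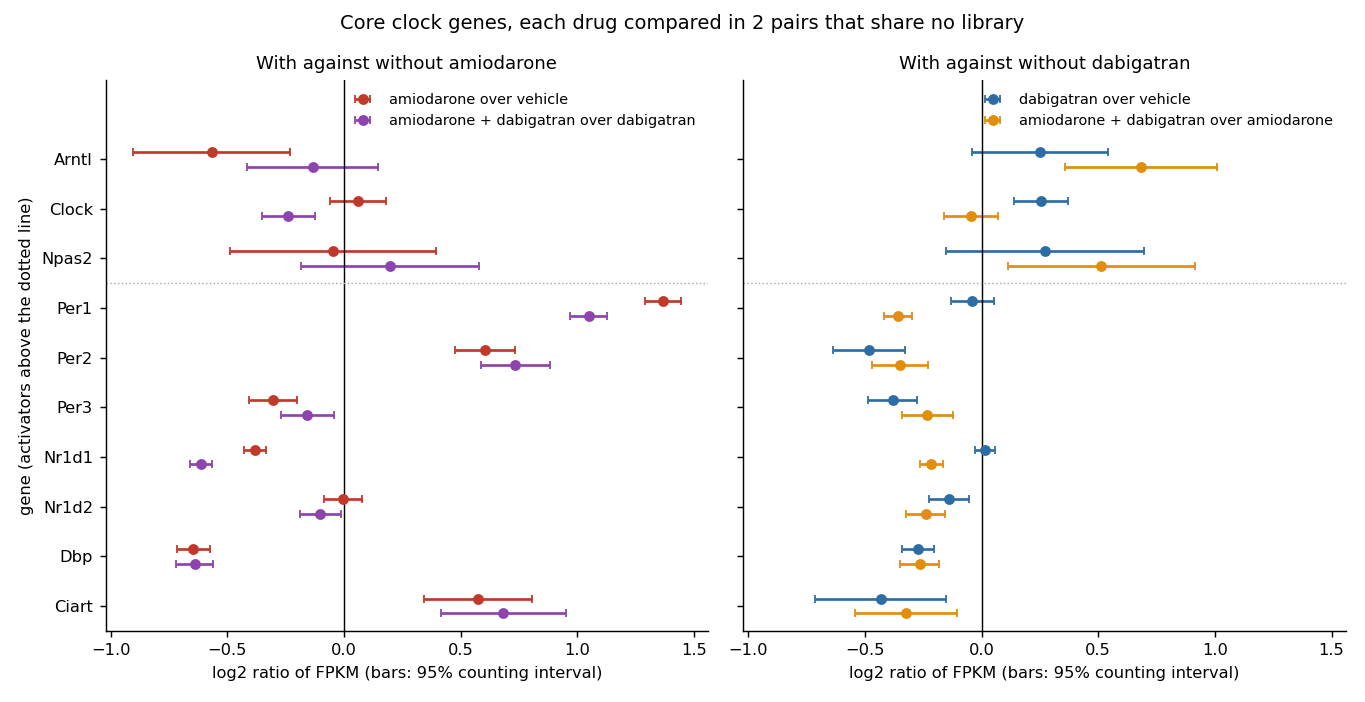
Log2 ratios of FPKM for the 10 clock genes, with each drug compared in 2 pairs of libraries that share none, and bars giving the 95% counting interval. In the amiodarone pairs Per1, Per2 and Ciart lie above 0 and Per3, Nr1d1 and Dbp below it, whereas in the dabigatran pairs the repressor genes lie mostly below 0.

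Dabigatran was likewise compared without amiodarone (dabigatran against vehicle) and with it (amiodarone + dabigatran against amiodarone). Here differences were small, and most repressor genes were lower. All 7 repressor genes were lower in the combination than in the amiodarone library beyond counting error, with ratios from 0.780 for Per1 to 0.861 for Nr1d1, where 15% of 13261 genes were lower beyond it and 21.2% higher. Other gene lists went both ways in this pair, counted by sign alone and not by counting error. The share of all genes by sign was not counted, and their median log2 difference was 0.03. Below the amiodarone library were 9 of 10 glucocorticoid-induced genes, 6 of 7 measured neutrophil markers and 8 of 12 rhythmic outputs. The glucocorticoid list includes Per1 itself, and Tsc22d3 is in both that list and the outputs. Above the amiodarone library were 6 of 10 macrophage markers and 7 of 10 markers of lung epithelium and endothelium. Against vehicle, 5 of the 7 were lower beyond it, with 13.4% of all genes lower and 15.2% higher, down to 0.716 (0.642 to 0.797) for Per2 and 0.741 (0.610 to 0.899) for Ciart. Per1, at 0.973 (0.912 to 1.04), and Nr1d1, at 1.01 (0.980 to 1.04), were not separated from vehicle.

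Activators tended the other way, but none was higher beyond counting error in both pairs. Arntl was 1.60-fold (1.28 to 2.01) and Npas2 1.43-fold (1.08 to 1.89) higher in the combination than in the amiodarone library, and Clock was 1.19-fold (1.10 to 1.29) higher with dabigatran than with vehicle. The other activator ratios were within counting error, including Clock at 0.969 (0.894 to 1.05) in the pair with amiodarone. The Arntl ratio is taken over the amiodarone library, the low one for this gene. The arm medians were 0.20 and 0.30 for the activators and -0.27 and -0.26 for the repressor arm, beside 0.00 and 0.03 over all genes.

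No member reached 1.5-fold on the log2(FPKM + 1) scale in either dabigatran pair. The background was 0.449% higher and 0.508% lower for dabigatran against vehicle, and 1.06% higher and 1.22% lower for the pair with amiodarone. In both pairs 8 of 10 members differed in the same direction, against 45.6% of 12988 genes, and Per2, Per3, Nr1d2, Dbp and Ciart were lower beyond counting error in both, where 5.02% of 13098 genes differed beyond it in the same direction in both. The mean centred level of the activators minus that of the repressor arm was 0.33 in the dabigatran library and 0.15 in the combination on the log2 scale, against -0.09 in the vehicle library and -0.38 in the amiodarone library. Both libraries given dabigatran thus lay above both others. No counting interval and no background over all genes was taken for this contrast, and Arntl and Npas2 rest on few reads.

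Against vehicle, the combination was set apart most for Dbp and Per1. Dbp was at 0.532 (0.504 to 0.560) of vehicle, the lowest ratio of any member in these comparisons, and Per1 at 2.01-fold (1.90 to 2.13). Nr1d1 (0.661, 0.639 to 0.683) and Per3 (0.689, 0.639 to 0.742) were lower. Per1 was called higher and Nr1d1 and Dbp lower, with backgrounds of 3.2% and 2.55% of 13390 genes. This comparison shares a library with each of the 4 pairs above, so its values are given side by side with theirs and add no independent evidence.

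Other genes of the clock were taken from a list of 20, of which 17 reached 1 FPKM. Both libraries given amiodarone lay above both others in 5 of the 17 and below them in 3, beside 21.9% and 31.4% of all genes. Nfil3, a repressor that competes with DBP for D-boxes, was the only one called, at 2.28 and 3.03 FPKM with vehicle and dabigatran and at 4.98 and 4.89 FPKM with amiodarone and the combination. It was 2.18-fold (1.67 to 2.89) higher with amiodarone than with vehicle and 1.61-fold (1.26 to 2.07) higher in the pair with dabigatran, where it missed the threshold on the log2(FPKM + 1) scale. Nfil3 thus lay on the side of Per1, opposite to Dbp. For amiodarone against vehicle 4.34% of all genes were called higher. Cry1, the partner of the period proteins, was at 4.62, 5.61, 3.97 and 5.89 FPKM in vehicle, amiodarone, dabigatran and combination, the order kept below. It was 1.21-fold (1.02 to 1.45) and 1.48-fold (1.24 to 1.78) in the amiodarone pairs. Cry2 was at 21.8, 21.0, 18.3 and 20.1 FPKM. Rora, a nuclear receptor that activates Arntl, was at 5.39, 6.12, 6.18 and 5.78 FPKM. Tef and Hlf, relatives of DBP, were at 78.1, 85.6, 68.4 and 73.5 FPKM and at 8.94, 8.24, 8.43 and 6.28 FPKM. Neither was called in any comparison, unlike Dbp. The E-box repressors Bhlhe40 and Bhlhe41 were at 36.2, 44.0, 31.2 and 37.0 FPKM and at 6.97, 6.72, 5.97 and 6.88 FPKM.

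Of 12 genes known to cycle in many organs, 2 were called higher with amiodarone than with vehicle and 1 in the pair with dabigatran. Over all genes 4.34% and 3.25% were called higher. Tsc22d3 was called in both pairs and Nampt in the former. Nampt, an enzyme of NAD synthesis, was at 15.4, 27.3, 16.1 and 22.5 FPKM, and Tsc22d3 (GILZ), a glucocorticoid-induced regulator, was at 73.3, 198, 66.9 and 161 FPKM. Of 8 temperature-responsive genes none was called in the amiodarone pairs. The largest log2 difference, 0.579 for amiodarone against vehicle, was just under the threshold of 0.585. Both libraries given amiodarone lay above both others in 2 of the 8 and below them in 2, beside 21.9% and 31.4% of all genes. Hspa1b, a heat shock protein, was called lower in the combination than with amiodarone, as were 1.22% of all genes. Its levels were 4.04, 5.35, 4.89 and 3.19 FPKM.

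**Figure D3:**
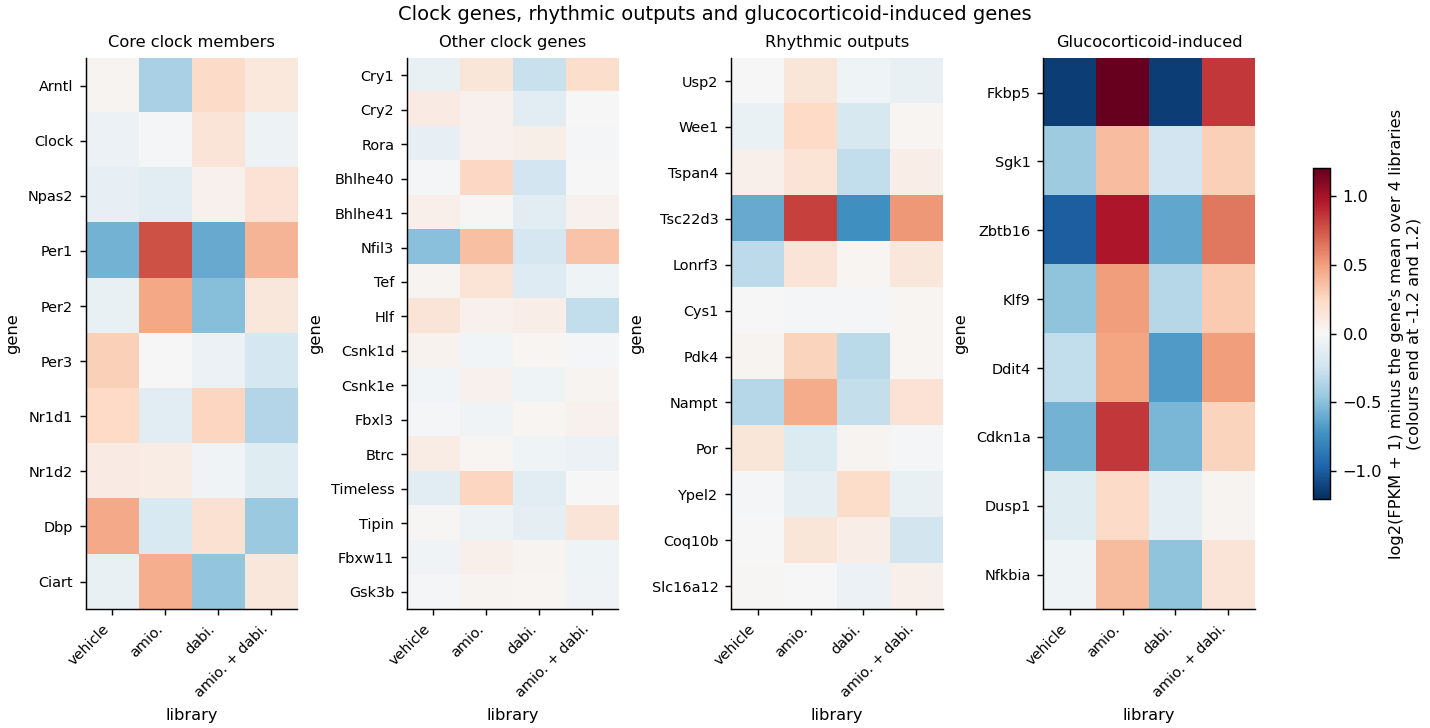
Centred log2(FPKM + 1) of clock genes, rhythmic outputs and glucocorticoid-induced genes, with libraries as columns, genes as lines and colour giving the distance from the mean of each gene. Per1, Per2 and Ciart share the colour of the glucocorticoid-induced genes in the libraries given amiodarone, and Nr1d1 and Dbp have the opposite one.

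Glucocorticoid-induced genes moved with Per1. Of a list of 10, which includes Per1 and Tsc22d3, 8 were called higher and none lower in each amiodarone pair. Without Per1 and Tsc22d3, 6 of 8 were called higher in each, beside 4.34% and 3.25% of all genes. The median log2 difference of all 10, Per1 and Tsc22d3 included, was 1.16 without dabigatran and 0.91 with it. Over all genes it was -0.05 and -0.01. For dabigatran against vehicle the median of the list was 0.01. In the combination against amiodarone it was -0.26, the same as for the repressor arm. Cdkn1a was called lower there, as were 1.22% of all genes. Fkbp5, a cochaperone of the glucocorticoid receptor, was at 4.50 FPKM with vehicle and 4.51 with dabigatran but 31.2 with amiodarone and 20.7 in the combination, with ratios in the amiodarone pairs of 6.94 (6.15 to 7.85) and 4.58 (4.05 to 5.20). The transcription factor Zbtb16 was at 5.46, 24.1, 7.32 and 18.9 FPKM. Sgk1, a kinase of ion transport, was at 40.8, 71.7, 46.8 and 67.4 FPKM, and Klf9, a transcription factor, at 39.2, 78.5, 43.3 and 68.8. Cdkn1a, Ddit4 and Nfkbia showed the same split. In all 10 genes both libraries given amiodarone lay above both others, as in 21.9% of 13536 genes. Without Per1 and Tsc22d3 this held for 8 of 8. Hormone levels are not among these data, and the part of glucocorticoids in the Per1 result was not tested.

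**Figure D4:**
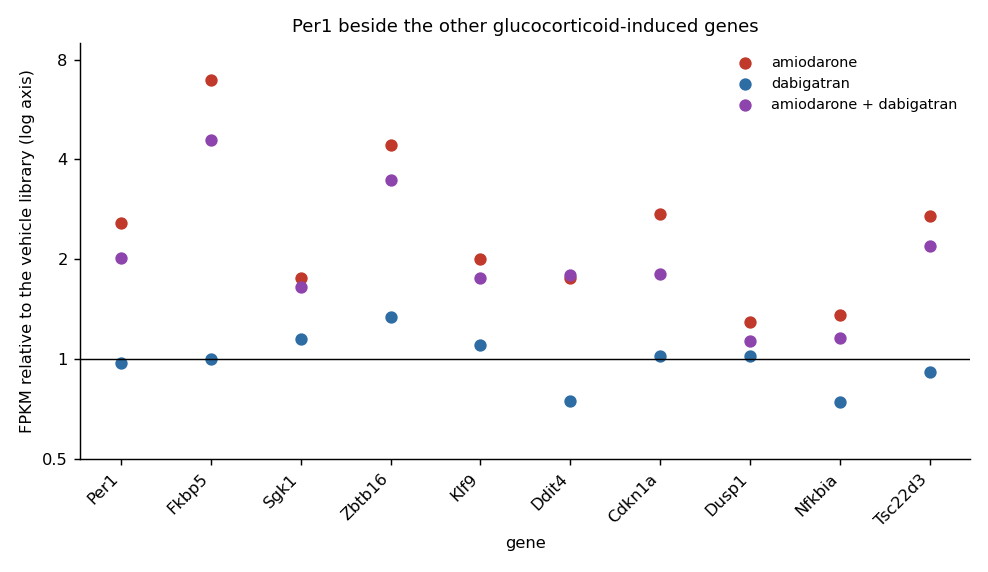
Per1 beside the other genes of the glucocorticoid-induced list, as FPKM relative to the vehicle library on a log axis, with 1 point per treated library. Per1 stood at 2.58 with amiodarone, 0.973 with dabigatran and 2.01 with both drugs, and Fkbp5 at 6.94 with amiodarone.

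Markers of other cells also moved with amiodarone. All 10 macrophage markers were at 1 FPKM or more in every library. In each amiodarone pair 7 of 10 were called higher, beside 4.34% and 3.25% of all genes. Their summed level was 3500, 5101, 3801 and 4836 FPKM in the order above. Lyz2 makes up most of it, at 3396, 4907, 3693 and 4618 FPKM. In the combination against amiodarone the sum was lower, but 6 markers were higher and 4 lower, with a median log2 difference of 0.16. Of 10 neutrophil markers, 5 were at 1 FPKM or more with dabigatran and 6 in each other library, and their sums were 91.1, 588, 68.6 and 425 FPKM. Mpo was at 0 with vehicle and Elane at 0 in the other 3 libraries, both being genes of immature neutrophils. The summed markers of lung epithelium and endothelium were 151664, 101569, 126075 and 126478 FPKM. This sum is mostly Scgb1a1, the secretoglobin of club cells, at 124168, 73994, 99032 and 97786 FPKM, and the median log2 difference of the list was -0.02 for amiodarone against vehicle, with 4 markers above 0 and 6 below. The part of these cells in the clock gene values was not tested.

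By RefSeq spans and GENCODE strands, opposite-strand neighbours overlap at least 6 members (Clock, Npas2, Per3, Nr1d1, Dbp and Ciart). Per3 shares 4714 bases with Uts2 and Ciart its whole 3758 bases with C920021L13Rik, and the levels of these neighbours, and of those that overlap Clock and Npas2, were not analysed here. The neighbours of Nr1d1 and Dbp have values. Nr1d1 (chr11:98767932-98775377, minus strand) shares 1075 bases with Thra, a thyroid hormone receptor, and Dbp (chr7:45705100-45710203, plus strand) shares 741 bases with Sphk2, a sphingosine kinase. Whether reads were counted by strand is not given in the sources used here, so reads from the shared bases cannot be told apart. In the same order Thra was at 64.8, 54.9, 65.1 and 59.9 FPKM and Sphk2 at 24.8, 22.7, 23.2 and 27.3. Sphk2 was highest in the combination, where Dbp was lowest, and Thra, like Nr1d1, was lower in both libraries given amiodarone.

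The genes closest in pattern to each arm were sought over the 4 libraries among the 9676 genes whose mean was 5 FPKM or more, by Euclidean distance of centred log2(FPKM + 1). The repressor arm mean lay nearest to Fam221a (distance 0.0193), followed by Eif2b4, Vill, Jmjd6 and Tef (0.0488). The activator mean lay nearest to AI467606 (0.0200), with Aaed1 (0.0338), Ccnq (0.0373) and Parn (0.0442) also near. With 4 points per gene such closeness is common and is given as a description, and the repressor mean averages members that went opposite ways.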

How the data were processed

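Poly(A) RNA of lung was sequenced by the authors on the DNBseq platform, with 1 library for each of 4 treatments. Per the labels, reads were processed with HISAT, Bowtie2 and RSEM on GRCm38.p6, and the authors deposited for each library an estimated count of reads and a normalized value per gene. The deposited normalized values, made by the authors with RSEM, are taken as FPKM on a linear scale. This unit is inferred, since reads per unit differed from vehicle by factors of 1.07 (amiodarone), 1.01 (dabigatran) and 1.08 (both), as did the totals. The 8 deposited columns of means were not used.

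Total reads ranged from 17498486 to 18903401. A count of 0 allows 3 reads, 1.71e-05% of the vehicle library. Differences were taken on log2(FPKM + 1), which understates low genes, and called at 1.5-fold among genes reaching 1 FPKM in 1 or both of the libraries. Ratios of FPKM have exact Clopper-Pearson intervals from rounded reads, and since reads are not independent molecules, these cover counting error only. With 1 library per group no group has a replicate. An additive model of both drugs would leave 1 residual degree of freedom and was not run. Alternatives were a pseudocount of 0.1, median-ratio rescaling, reads scaled to the total of the library, a 2-fold threshold, other filters and an arm without Dbp and Ciart. All members are named, other listed genes at 1.5-fold plus 9 clock genes fixed by name, and the 5 genes nearest each arm, except that 2 genes under these rules are not reported here. Members and lists were chosen with earlier results of these data known. The procedure was tested on simulated data. Python 3.11.15, numpy 2.4.6, pandas 2.3.3 and scipy 1.17.1 were used.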

Additional observations from a re-analysis of the deposited data

How the results depend on the processing

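No paired analysis was possible because each group has 1 library, and for the same reason no library could be left out. Of 81 alternatives for counts, medians and the contrast of the arms, 76 gave the same result or a count within 1.5 times the first. Among the latter, the count for amiodarone against vehicle went from 2 to 3, adding Per2, with a pseudocount of 0.1 and on rescaling, and that for the combination against vehicle from 3 to 2, losing Nr1d1, on rescaling. A 2-fold threshold left 1 member called for amiodarone against vehicle, 1 in the pair with dabigatran and 0 for the combination against vehicle, from 2, 5 and 3 at 1.5-fold. For the combination against amiodarone the count went from 0 to 1, Arntl, with a pseudocount of 0.1 and also with reads scaled to the library total, since Arntl is low and the added 1 shrinks its ratio. Of 150 alternatives for single members 1 moved by more than its counting interval (Nr1d1, amiodarone minus vehicle, from -0.38 to -0.33 on rescaling). The sign differed in 2 of them, Npas2 and Nr1d2 for amiodarone minus vehicle on rescaling, both within 0.03 of 0 before it, and with them the medians of both arms. Depth limits Npas2 (87 to 130 reads) and Arntl (129 to 218 reads) most.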

Other observations

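Single members were also set beside all genes whose mean was 5 FPKM or more, a search chosen after the values were seen. The gene nearest to Per1 over the 4 libraries was Xdh, xanthine dehydrogenase, at 72.2, 194.9, 73.6 and 147.9 FPKM in vehicle, amiodarone, dabigatran and combination (distance 0.0662). Nearest to Dbp were Hrc, at 11.5, 6.98, 9.02 and 5.76 FPKM, and Csrp3, at 45.3, 27.9, 35.5 and 24.5 FPKM, which are both known as genes of heart muscle. Nr1d1 lay nearest to Btg2, at 79.0, 59.0, 80.8 and 51.4 FPKM. Per2 and Ciart shared both Gm39701, at 8.84, 12.9, 6.43 and 10.7 FPKM, and Nfkbia, at 133, 181, 98.7 and 154 FPKM, among their 3 nearest genes. With 4 points per gene these are descriptions of the libraries.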
